A study of Mus musculus with 6 samples.

Results

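Actin builds the filament network under the plasma membrane of every cell, and 10 genes of that system were followed in mouse liver: the cytoplasmic actins Actb and Actg1, the actin-binding proteins Cfl1, Pfn1, Tmsb4x and Arpc2, the myosin II chains Myl6 and Myh9, the myosin phosphatase partner Mprip and the transcription factor Srf. They were taken by gene symbol from a count table of 56674 rows, and all 10 were among the 17871 genes that passed the filter on low counts. Actb and Mprip had been selected on the tight difference between the groups in their counts, so their difference is described without a test. Livers came from male C57BL/6 mice, an inbred laboratory strain, labelled 71 weeks in both groups (a rearing time, per the growth protocol), with 3 control libraries from livers on normal chow and 3 exposed libraries from livers on chow that held polypropylene black microplastic (PB-MP). The labels name no altered gene in either group, and neither particle dose nor particle size is stated in them. The treatment protocol field names the plastic chow for control samples too, and the groups follow the sample titles and the treatment characteristic. The comparison addressed whether long dietary exposure to the plastic alters liver gene expression. Whether each library is a separate animal is not stated, so p-values measure only how far these samples scatter, and that scatter may be technical.

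Actin monomers join into filaments and leave them again, and small proteins set the pace: profilin (Pfn1) loads monomers for growth, thymosin beta 4 (Tmsb4x) holds them in reserve, and cofilin (Cfl1) severs old filaments. The Arp2/3 complex, of which Arpc2 is a subunit, starts branches. Nonmuscle myosin II, built of heavy chains such as Myh9 and light chains such as Myl6, pulls on filaments when its regulatory light chain is phosphorylated, and Mprip ties the phosphatase that reverses this to actin. Srf binds a DNA element called the CArG box in the promoters of many actin genes, and free actin monomer restrains its coactivators. In liver these proteins shape the bile canaliculi of hepatocytes and the contractility of stellate cells.

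The coding sequences of Actb and Actg1 are shown first because the 2 genes encode nearly the same protein, so that their levels rest on reads telling them apart. From GENCODE M21 (GRCm38, while GRCm39 is the build in the submitters' processing notes), the first 60 coding bases are given 5′ to 3′, counted from 1 at the start codon, with bases that differ between the 2 genes in capitals.
Actb: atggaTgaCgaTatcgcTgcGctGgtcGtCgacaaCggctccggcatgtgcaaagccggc
Actg1: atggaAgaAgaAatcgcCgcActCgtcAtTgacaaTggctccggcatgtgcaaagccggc
Over 1125 coding bases without the stop codon, 128 differed, in 125 of 375 codons (88.6% identity). The longest run without a difference was 62 bases, and of 1871 stretches of 50 bases in the Actb transcript, 30 (1.6%) also occurred in a transcript of Actg1. Most stretches of that length thus belong to only one of the 2 actins. Actb shares more, 179 stretches (9.57%), with transcripts of Lrrc58, whose row held 1716 to 2835 reads in control and 2029 to 4422 in exposed livers, against 16797 to 42643 for Actb. Actg1 has a closer relative in the annotated pseudogene Gm12715, which held 973 of its 1903 stretches (51.1%). The row Gm12715 had 16% to 18.9% as many reads as Actg1 in each of the 6 libraries, and the groups overlapped in this share. The treatment of reads that match several places is not given in the sources used here.

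Promoters of 9 of the 10 genes were matched in RefSeq (GRCm38.p6, 250 bases before to 50 after the start), namely all but Actb. The CArG box, searched on both strands as a palindromic pattern, occurred in a window of Actg1, Srf and Myl6. That is 3 of 9 genes, which had 11 windows in all. The whole set held 32851 windows for 27025 genes, and 1.63% of those windows had a match. The 120 bases before the start are shown for these 3, since they carry the element that Srf is known to bind, with each match in capitals. All are written 5′ to 3′ on the minus strand, which is the strand of each gene.
Actg1, chr11:120348496-120348615: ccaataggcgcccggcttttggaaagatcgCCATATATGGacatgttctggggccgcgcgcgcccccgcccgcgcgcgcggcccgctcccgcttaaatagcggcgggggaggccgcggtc
Srf, chr17:46556163-46556282: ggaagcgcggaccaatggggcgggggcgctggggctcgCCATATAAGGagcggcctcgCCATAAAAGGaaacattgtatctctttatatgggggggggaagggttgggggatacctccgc
Myl6, chr10:128493010-128493129: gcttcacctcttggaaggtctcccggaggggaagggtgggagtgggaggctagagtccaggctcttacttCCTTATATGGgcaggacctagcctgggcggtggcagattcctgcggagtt
The match began 90 bases before the start in Actg1, 82 and 62 in Srf, and 50 in Myl6, where it lies before the more downstream of 2 annotated starts. The 3 genes did not share a pattern over the libraries: the groups did not overlap for Actg1 and overlapped for Srf and Myl6. A match is a description of the letters, and nothing follows from its absence elsewhere.

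The libraries held 68357478 to 112566641 counted reads, which puts 3 reads, the limit that a count of 0 allows, at 0.0285 to 0.0495 CPM (counts scaled to a common library size by the trimmed mean of M-values, TMM). Rows of the mitochondrial genome took 14.9% to 16.4% of the reads in control and 9.24% to 11.3% in exposed livers. The 10 genes together took 0.118% ± 0.00918 of the reads in control and 0.101% ± 0.00607 in exposed livers (SD, n = 3 each). This sum includes Actb and Mprip, and the share of the other 8 genes was 0.0783% ± 0.00572 and 0.0720% ± 0.00550, with overlap between the groups. Without mitochondrial and ribosomal RNA rows the share of all 10 was 0.150% ± 0.00226 and 0.119% ± 0.00297. The TMM factor ranged from 0.887 to 0.961 over control libraries and from 1.04 to 1.12 over exposed ones.

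Beta-actin had the lower level in every exposed library. In the order of replicates 1, 2 and 3, used throughout, Actb stood at 421, 377 and 406 CPM with normal chow and at 213, 203 and 195 CPM with the plastic. The lowest control was thus far above the highest exposed library, and within a group the libraries differed little, with a coefficient of variation of 5.46% in control and 4.46% in exposed livers. The mean CPM was 1.97-fold lower in exposed livers, and the log2 fold change, exposed over control throughout, was -0.98 ± 0.14 (SE). The estimate was -0.76 when libraries were scaled by size alone, a setting that moves the median of all genes to 0.23 from 0.01. With mitochondrial and ribosomal RNA rows left out it was -0.96. The ribosomal RNA row Rn18s-rs5 took 11.2% of the reads of control replicate 2, 9.42% of those of exposed replicate 2 and at most 3.61% in the other 4 libraries, and exposed replicate 3 stood apart by transcript length. The estimate stayed negative with control replicate 2 and exposed replicate 3 left out together. Actb was selected on its tight difference between the groups, so its SE and this kept sign are a description.

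Gamma-actin, the other cytoplasmic isoform, stood at 86.2, 72.5 and 65.4 CPM in control and 65.4, 43.4 and 48.6 in exposed livers. The groups of Actg1 touched without overlapping, since control replicate 3 and exposed replicate 1 were nearly level. Its log2 fold change was -0.51 ± 0.20 and did not pass the test (edgeR quasi-likelihood, Benjamini-Hochberg over all genes tested, adjusted p = 0.389). Within a library, which needs no scaling, there were 4.88, 5.21 and 6.20 Actb reads per Actg1 read in control and 3.26, 4.69 and 4.01 in exposed livers. This ratio did not overlap between the groups, and it includes the difference that Actb was selected on. Acta2, the smooth muscle actin of stellate cells and vessel walls, had 1.74 ± 0.283 CPM in control and 1.03 ± 0.214 in exposed livers (adjusted p = 0.357). Acta1, the skeletal muscle actin, had 0 reads in all 6 libraries.

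Of the 8 genes other than Actb and Mprip, 0 passed at an adjusted p below 0.05 in edgeR, where 0 of all 17871 genes (0%) passed in either direction. DESeq2, limma-voom and limma-voom with library quality weights also called 0 of the 8, and over all genes DESeq2 called 1.73% higher and 0.728% lower. At an unadjusted p below 0.05 there were 4 of 8 lower in exposed livers and 0 higher, against 4.74% and 7.35% of all genes. The same 4 genes, Pfn1, Cfl1, Actg1 and Arpc2, were lower without overlap between groups, as were 8.49% of all genes, and 0 of 8 were higher without overlap, as were 11.4% of all genes. The median log2 fold change of the 8 was -0.22, beside 0.01 over all genes tested. The 8 genes were picked with earlier results of these data known, so these counts are a description.

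**Figure D1:**
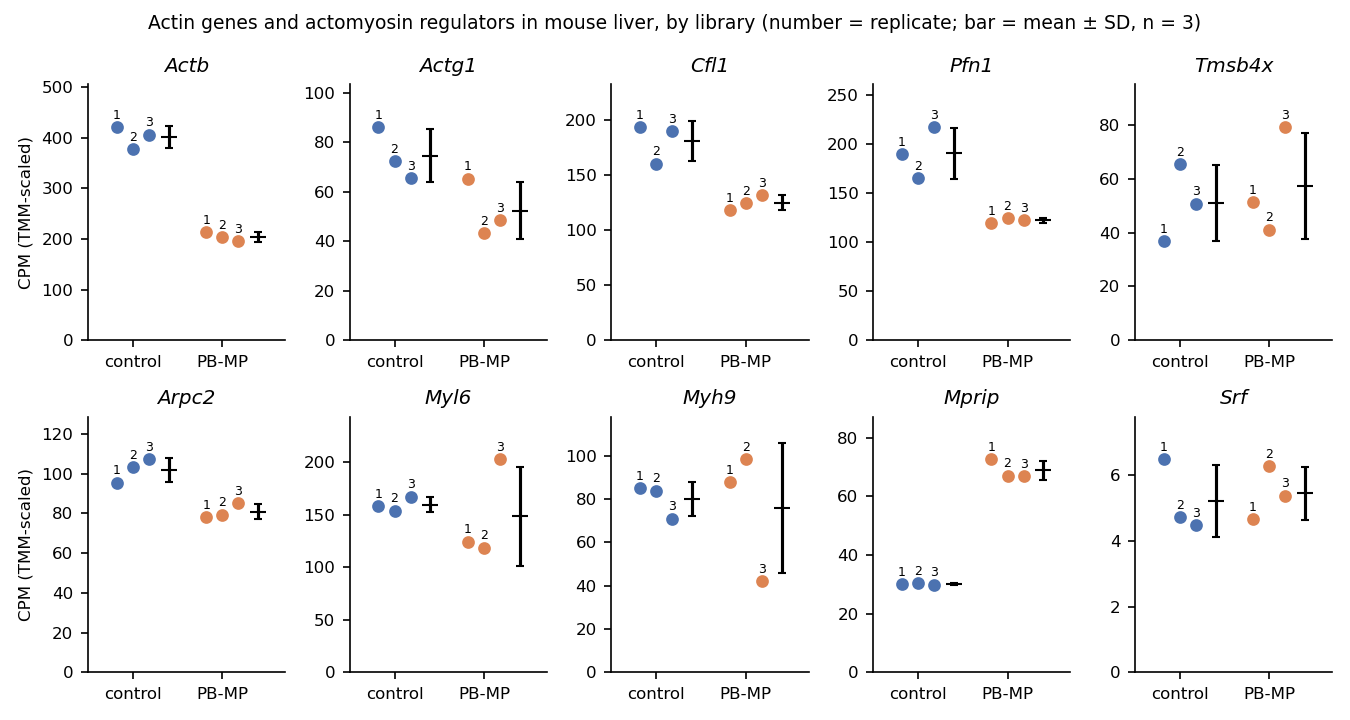
TMM-scaled CPM of the 10 genes in each library, with the replicate number over each point and the mean ± SD (n = 3) as a bar. The control and PB-MP (exposed) groups are far apart for Actb and Mprip, closer but without overlap for Actg1, Cfl1, Pfn1 and Arpc2, and mixed for Tmsb4x, Myl6, Myh9 and Srf.

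Pfn1 and Cfl1, whose proteins drive filament turnover, were both lower in every exposed library than in every control library. Pfn1 stood at 190, 165 and 217 CPM in control and 119, 125 and 122 in exposed livers. The exposed libraries had a coefficient of variation of 2.24% and lay below every control. Its log2 fold change was -0.64 ± 0.16 (adjusted p = 0.241). Cfl1 stood at 193, 160 and 189 CPM in control and 118, 124 and 131 in exposed livers, again without overlap, with a log2 fold change of -0.54 ± 0.15 (adjusted p = 0.259). For both genes control replicate 2 was the lowest control. There were between 0.872 and 1.07 Cfl1 reads per Pfn1 read in all 6 libraries, and this ratio overlapped between the groups. Actb had 1.87 to 2.29 reads per Pfn1 read in control and 1.59 to 1.79 in exposed livers, a ratio that includes the difference Actb was selected on.

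Arpc2 showed a smaller difference of the same direction. It stood at 95.4, 103 and 107 CPM in control and 78.2, 79.3 and 85.1 in exposed livers, without overlap. Its log2 fold change was -0.33 ± 0.13 (adjusted p = 0.389), and the 95% interval, -0.65 to -0.02, lay within a 2-fold change. With library size alone the estimate was -0.11, while the median of all genes lay at 0.23.

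Tmsb4x did not follow Pfn1 and Cfl1. It stood at 36.9, 65.4 and 50.9 CPM in control and 51.5, 41.2 and 79.3 in exposed livers, with the lowest value in control replicate 1 and the highest in exposed replicate 3. Its log2 fold change was 0.17 ± 0.30 (adjusted p = 0.860), and the sign turned without control replicate 1 (-0.02) or exposed replicate 3 (-0.14). Thymosin beta 4 is abundant in leukocytes and macrophages. The summed level of 10 Kupffer cell and macrophage markers was 346 CPM in exposed replicate 3 and 131 to 184 in the other 5 libraries. The sum of 10 leukocyte markers was 143 CPM there and 33.0 to 71.6 in the others, but Lyz2, also a macrophage gene, gave 125 of the 143. Without Lyz2 the sum was 18.0 CPM in exposed replicate 3 and 28.7 in control replicate 2, the highest. The part of these cells in the Tmsb4x level was not tested.

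The myosin II chains differed between libraries more than between groups. Myl6 stood at 158, 154 and 167 CPM in control and 124, 119 and 203 in exposed livers. Exposed replicates 1 and 2 lay below every control and exposed replicate 3 above, so the log2 fold change was -0.10 ± 0.23 (adjusted p = 0.886). Myh9 did the opposite. It stood at 84.9, 83.9 and 70.9 CPM in control, at 87.8 and 98.3 in exposed replicates 1 and 2, and at 42.0 in exposed replicate 3, with a log2 fold change of -0.07 ± 0.31 (adjusted p = 0.944). Without exposed replicate 3 the estimate was -0.40 for Myl6 and 0.22 for Myh9. With all libraries kept, both signs turned with library size alone, to 0.11 for Myl6 and 0.15 for Myh9. Within a library there were 1.21 to 2.36 Myl6 reads per Myh9 read in 5 libraries and 4.83 in exposed replicate 3. The regulatory light chains Myl12a and Myl12b, named after their values were seen, had the same order of libraries around the controls as Myl6. Myl12a had 40.1 and 40.5 CPM in exposed replicates 1 and 2 and 64.2 in replicate 3, against 49.6 to 53.3 in control, and Myl12b had 43.4, 46.2 and 60.6 against 51.1 to 58.7. The pseudogene Gm5526 shares 258 of 616 stretches of 50 bases (41.9%) with Myl6, and its row held 1 read in each of 5 libraries and 161 reads, 0.814% of those of Myl6, in exposed replicate 3.

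The exposed libraries also differed by transcript length. Under 1 kb and from 4 kb on, exposed replicate 3 and exposed replicates 1 and 2 lay on opposite sides of the controls. Over 1243 genes with a transcript under 1 kb and a mean CPM of 1 or more, the median log2 CPM relative to the mean of the 6 libraries was 0.26 in exposed replicate 3, -0.24 and -0.26 in exposed replicates 1 and 2, and 0.00 to 0.18 in control. Over 3563 genes of 4 kb and longer it was -0.24, 0.14 and 0.18, and -0.05 to 0.11. Myl6 (665 bases) lay at 0.42 in exposed replicate 3 on the same scale, Tmsb4x (768 bases) at 0.60 and Myh9 (7433 bases) at -0.84. In exposed replicates 1, 2 and 3, Pfn1 (861 bases) lay at -0.35, -0.29 and -0.31, on the side of its length class in the first 2 and on the other side in replicate 3. Mprip (8718 bases) lay at 0.67, 0.56 and 0.55, likewise on the side of its class in replicates 1 and 2 only. Actb (1920 bases) lay at -0.42, -0.49 and -0.55, and the medians of its class of 1 to 2 kb were -0.10, -0.12 and 0.16. In control Actb lay at 0.40 to 0.56 and its class at -0.06 to 0.10. The part of transcript length in the values of these genes was not tested.

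**Figure D2:**
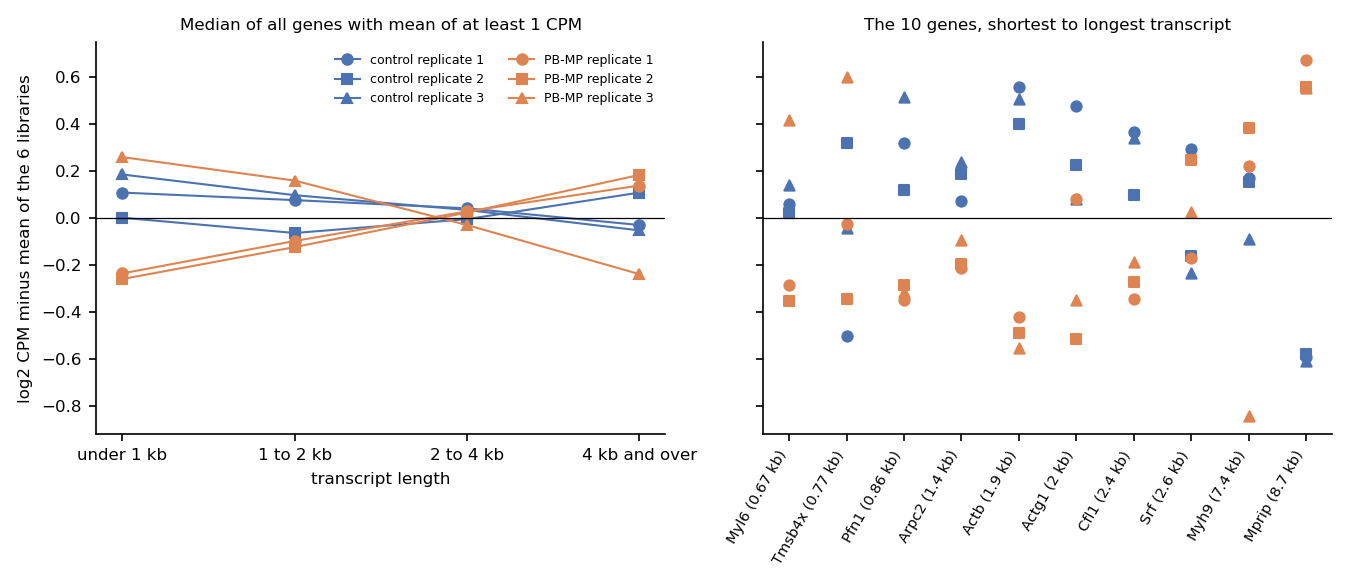
Log2 CPM (pseudocount 0.1) minus the mean of the 6 libraries, as the median of all genes with a mean CPM of 1 or more in 4 classes of transcript length (left) and for each of the 10 genes by transcript length (right). In PB-MP replicate 3 short transcripts lie high and long ones low, at 0.26 and -0.24, while Actb and Mprip keep the order of the groups in every library.

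Mprip had a higher level in every exposed library than in any control library. It stood at 30.1, 30.5 and 29.8 CPM in control and 72.6, 67.0 and 66.8 in exposed livers. The control libraries were nearly level, with a coefficient of variation of 1.03% (4.77% in exposed livers), and the mean was 2.28-fold higher in exposed livers. The log2 fold change was 1.19 ± 0.13, and it was 1.41 with library size alone. The long Mprip transcript shares 791 of its 8669 stretches of 50 bases (9.12%) with the pseudogene Mrip-ps, whose row held 32 to 47 reads in control and 52 to 89 in exposed livers, at most 2.14% of the reads of Mprip. Mprip is known for several isoforms, and these counts per gene do not separate them.

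The partners of Mprip were measured in the same libraries. Ppp1r12a, the targeting subunit of myosin phosphatase that Mprip binds, stood at 4.88, 16.7 and 11.0 CPM in control and 14.6, 10.3 and 12.8 in exposed livers (log2 fold change 0.21 ± 0.42, adjusted p = 0.873). Its catalytic partner Ppp1cb was at -0.05 ± 0.25 (adjusted p = 0.947). Rhoa, the GTPase that activates the kinases Rock1 and Rock2 and also binds Mprip, stood at 137, 125 and 129 CPM in control and 115, 120 and 114 in exposed livers (-0.16 ± 0.13, adjusted p = 0.665). There were 0.221 to 0.244 Mprip reads per Rhoa read in control and 0.558 to 0.630 in exposed livers. Per read of Ppp1cb they did not overlap either, at 0.347 to 0.608 and 0.917 to 1.29. The ratio overlapped for Ppp1r12a, at 1.83 to 6.17 and 4.99 to 6.52, and for Rock1, at 1.88 to 4.76 and 3.50 to 4.74. Each of these ratios includes the difference that Mprip was selected on. Rock1 and Rock2, which oppose myosin phosphatase, were at 0.47 ± 0.34 and 0.27 ± 0.40 (adjusted p of 0.619 and 0.820). Ppp1r12a, Ppp1cb, Rhoa, Rock1 and Rock2 were chosen for their known tie to Mprip and named after their values were seen.

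Srf, whose protein drives many actin genes, was scarce and did not separate the groups. It stood at 6.49, 4.72 and 4.48 CPM in control and 4.68, 6.29 and 5.39 in exposed livers, on 286 to 532 reads a library. Its log2 fold change was 0.06 ± 0.24 (adjusted p = 0.939), with a 95% interval of -0.50 to 0.62. The sign of the estimate turned with single libraries left out, at -0.06 without exposed replicate 2. Its coactivators Mrtfa and Mrtfb, named after their values were seen, were at -0.27 ± 0.25 and 0.10 ± 0.28 (adjusted p of 0.706 and 0.916).

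**Figure D3:**
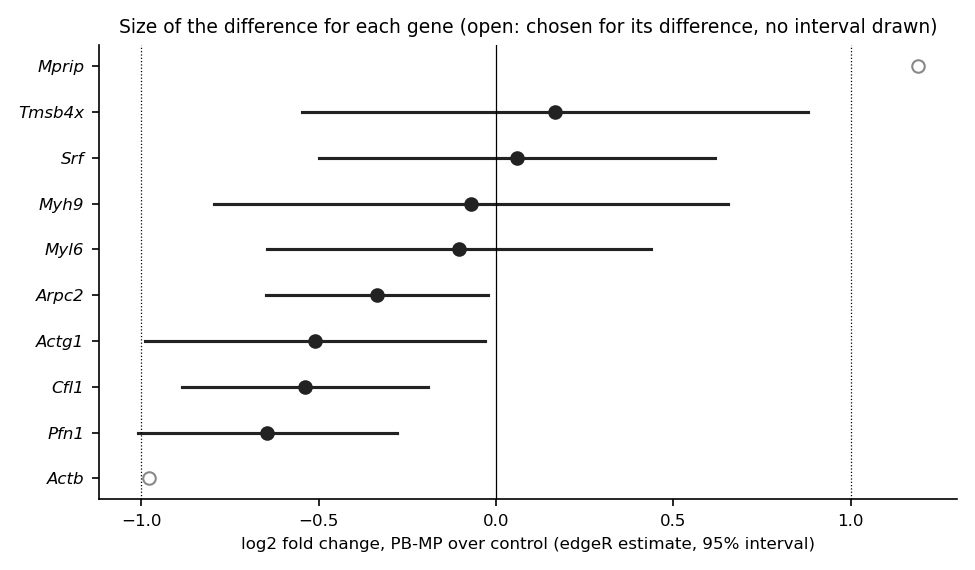
Log2 fold change of PB-MP over control for the 10 genes, as the edgeR estimate with its 95% interval for the 8 genes that were tested and the estimate alone for Actb and Mprip, with dotted lines at -1 and 1. The intervals of Pfn1, Cfl1, Actg1 and Arpc2 lie below 0 before adjustment, and those of Myh9, Myl6, Srf and Tmsb4x cross it.

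A 2-fold change lay outside the 95% interval for 7 of the 8 tested genes. The exception was Pfn1, whose interval ran from -1.01 to -0.28. For Tmsb4x, Myl6, Myh9 and Srf, which had adjusted p-values of 0.860 to 0.944, the intervals thus leave room for changes short of 2-fold in either direction.

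Levels can be compared between genes only per transcript length. In control, Myl6, Pfn1 and Actb led at 240 ± 10.4, 222 ± 30.3 and 209 ± 11.4 CPM per kb (SD, n = 3), and their ranges over libraries overlapped from each to the next. Cfl1, Arpc2 and Tmsb4x followed at 76.8 ± 7.72, 70.9 ± 4.15 and 66.5 ± 18.6, also overlapping. Actg1 came next at 38.3 ± 5.42, then Myh9 at 10.8 ± 1.05, Mprip at 3.46 ± 0.0356 and Srf at 1.999 ± 0.420, each apart from its neighbours. In exposed livers, Actb stood at 106 ± 4.73 CPM per kb, below every library of Pfn1 (142 ± 3.17), and Mprip at 7.89 ± 0.377 overlapped with Myh9 at 10.2 ± 4.03. These levels rest on 1 reference transcript per gene, the longest among equally well annotated ones. Which transcripts these livers used was not tested, and a shorter one would raise the level per kb.

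Because Actb is a common reference gene for quantitative PCR, its reads were set against those of 14 genes used for the same purpose. Per read of Gapdh, a glycolytic enzyme, there were 0.903, 1.19 and 0.980 Actb reads in control and 0.581, 0.534 and 0.437 in exposed livers. Per read of Tbp, the TATA-binding protein, chosen after its values were seen, there were 27.2 to 39.5 in control and 9.95 to 13.0 in exposed livers. The ratio was lower in every exposed library than in every control library for 13 of the 14. The exception was Ywhaz, a signalling adaptor, with 5.99 to 8.40 Actb reads per read in control and 4.22 to 10.02 in exposed livers. Per read of B2m, the light chain of class I histocompatibility molecules, it was 0.224 ± 0.00730 in control and 0.156 ± 0.0115 in exposed livers. The choice of reference thus moved the size, and all 14 ratios share the same Actb values, with the difference that Actb was selected on, so the count of 13 is a description. Of the 14 genes themselves, 0 passed in edgeR, DESeq2 or limma-voom, where DESeq2 called 2.46% of all genes. At an unadjusted p below 0.05 in edgeR 3 were lower and 1 was higher, beside 4.74% and 7.35% of all genes. The median log2 fold change of the 14 was -0.05, or 0.17 with library size alone. Gapdh was at -0.01 ± 0.19, B2m at -0.45 ± 0.16 and Gusb, a lysosomal enzyme, at -0.52 ± 0.18 (adjusted p of 0.992, 0.353 and 0.346). Tbp itself was at 0.47 ± 0.20 (adjusted p = 0.413), higher without overlap, as were 11.4% of all genes. The ratio of Actb to Tbp includes that difference.

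**Figure D4:**
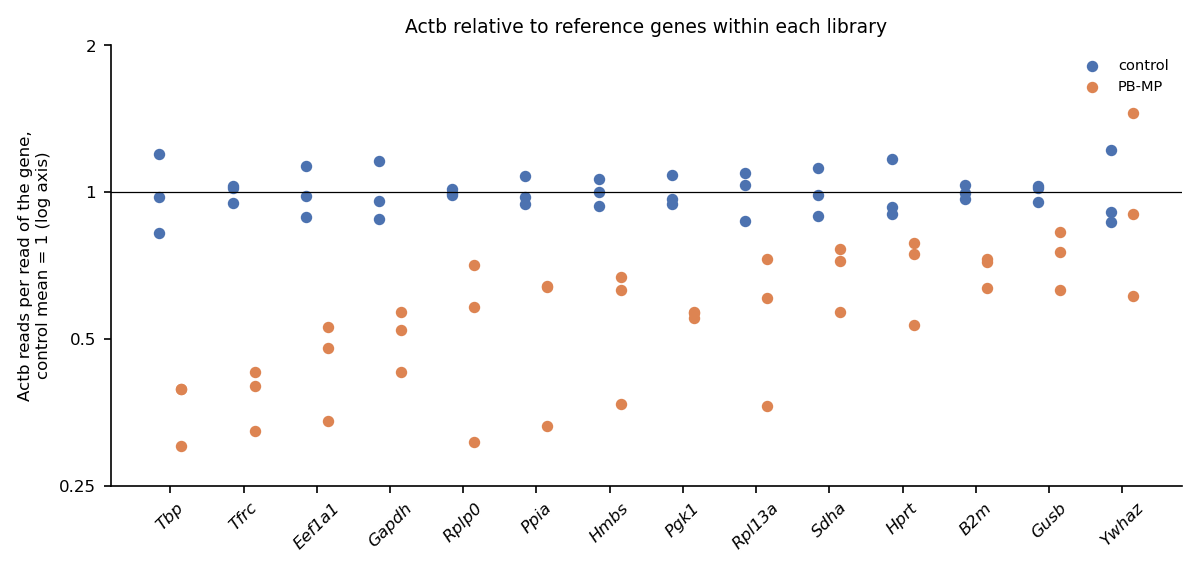
Actb reads per read of each of 14 reference genes in each library, divided by the mean of the control libraries, on a log axis. The PB-MP libraries lie below all controls for 13 genes, and the groups overlap for Ywhaz.

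The wider actin system was described with 8 lists by function, holding 114 genes, of which 105 were tested. The lists were also chosen with earlier results of these data known. Without the 10 genes above there were 95, and 0 of them passed in edgeR (smallest adjusted p = 0.207). Limma-voom also called 0, and DESeq2 called 1, Limk1, where it called 2.46% of the 20865 genes it tested. At an unadjusted p below 0.05, 6 were lower (4.74% of all genes) and 1 was higher (7.35%). The groups did not overlap for 14 that were lower (8.49% of all genes) and 1 that was higher (11.4%). Of the 95, 68 had an estimate below 0, against 49.4% of all genes, and the median was -0.13. With library size alone 26 (27.4%) were below 0, near the 28.5% of all genes, at a median of 0.09 beside 0.23 for all genes. Without control replicate 2 and exposed replicate 3 together, 54 of 97 (55.7%) were below 0, against 48.4% of all genes.

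Most of the actin-binding proteins and Arp2/3 subunits had lower estimates in exposed livers. Of 16 tested genes that bind monomers, sever or cap filaments, 15 had an estimate below 0 (all but Tmsb4x), with a median of -0.29. With library size alone 8 of these 16 were below 0 at a median of -0.07, beside 28.5% and 0.23 for all genes. Gsn, which encodes the severing protein gelsolin, had 14.1 ± 1.33 CPM in control and 9.71 ± 0.796 in exposed livers (SD, n = 3, as for the genes that follow), and Wdr1, a cofactor of cofilin, 36.0 ± 4.33 and 27.3 ± 3.40 (adjusted p of 0.330 and 0.422). Of the 9 Arp2/3 subunits, 8 were below 0 at a median of -0.18, and 2 with library size alone. Arpc4 had 62.3 ± 8.37 and 44.6 ± 3.22 CPM, and Arpc5l 33.3 ± 2.10 and 28.9 ± 1.73 (adjusted p of 0.328 and 0.604), both without overlap. In the 12 crosslinkers and membrane linkers the median was -0.19 (0.03 with library size alone), with Fscn1, a filament bundler, at 2.25 ± 0.510 and 1.41 ± 0.261 CPM and the membrane linker Ezr at 4.99 ± 2.75 and 3.36 ± 0.342 (adjusted p of 0.408 and 0.591). The 17 nucleation and branching regulators had a median of -0.13 (0.09 with library size alone) and 0 genes without overlap, with Cyfip2 and Cyfip1 of the WAVE complex at log2 fold changes of -0.61 ± 0.34 and -0.19 ± 0.15 (adjusted p of 0.509 and 0.662).

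Contractile and signalling genes were mixed. Among 7 nonmuscle myosin II chains the median was -0.10 (0.11 with library size alone). Myl9, a regulatory light chain of smooth muscle, had 1.67 ± 0.298 CPM in control and 1.03 ± 0.307 in exposed livers, and the heavy chain Myh14 5.74 ± 0.843 and 6.74 ± 1.65 (adjusted p of 0.433 and 0.748). Of 20 genes of myosin phosphatase and Rock signalling, 11 were above 0 and 9 below, at a median of 0.08. Limk1, the kinase that inactivates cofilin by phosphorylation, stood at 5.20, 3.32 and 5.80 CPM in control and 1.95, 1.49 and 1.82 in exposed livers. Its groups did not overlap, and its log2 fold change was -1.45 ± 0.29 (adjusted p = 0.207). It is the gene that DESeq2 called. Ssh3, of the slingshot phosphatases that reactivate cofilin, had 9.16 ± 1.59 and 13.5 ± 1.25 CPM (0.56 ± 0.20, adjusted p = 0.351). Among 20 genes of Srf, its coactivators and cytoskeletal targets, 11 were below 0 and 9 above, at a median of -0.09 (0.14 with library size alone). Tpm2, a tropomyosin, had 16.7 ± 4.74 and 9.67 ± 2.47 CPM, and Tagln2, a transgelin, 8.69 ± 0.995 and 6.27 ± 0.947 (adjusted p of 0.372 and 0.422).

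**Figure D5:**
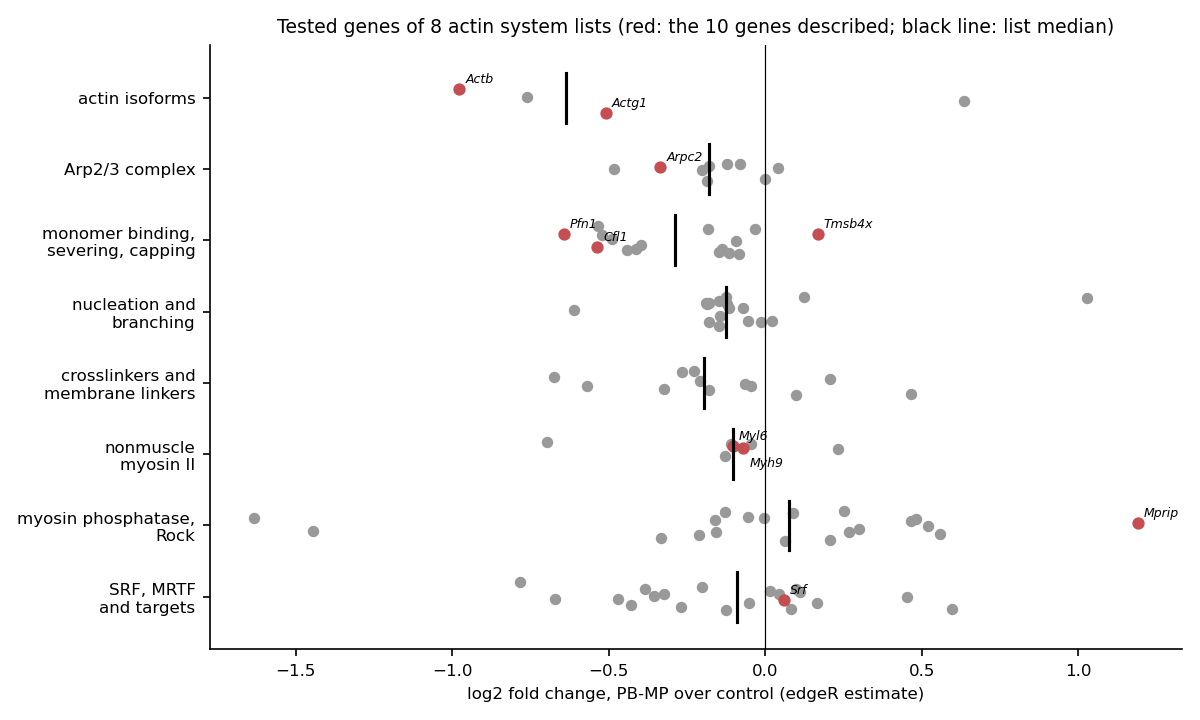
Log2 fold change of PB-MP over control for the tested genes of 8 actin system lists, with the 10 genes in red and the list median as a black line. Medians run from -0.64 for the 4 tested actin isoforms, Actb among them, to 0.08 for myosin phosphatase and Rock signalling, and with library size alone the median of all genes is 0.23 in place of 0.01.

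Actin and myosin genes are higher in several nonparenchymal cells than in hepatocytes, and in bulk tissue fewer cells of a type and less RNA per cell cannot be told apart. Hepatocyte markers (9 of 10 names matched) summed to 69905 to 92358 CPM in control and 75245 to 88421 in exposed livers, with Alb, Cyp2e1 and Apoa2 most abundant. Stellate cell and myofibroblast markers summed to 444 to 459 CPM in control and to 226, 447 and 367 in exposed livers, and 9 of 10 had estimates below 0. With 1 library left out, 7 (without exposed replicate 1) to 10 (without exposed replicate 2) were below 0, and 7 with library size alone. The most abundant of these markers were Dcn, Ecm1 and Reln. Smooth muscle markers summed to 19.1 to 24.7 and 15.8 to 19.6 CPM, with 7 of 8 tested below 0 (5 with library size alone). Des, Tagln and Mylk were most abundant, while Actg2 and Cnn1 had at most 20 reads in any library. Des and Acta2 stand in both of these lists. Of all genes, 49.4% had estimates below 0, and 28.5% with library size alone. Kupffer cell and macrophage markers summed to 131 to 174 and 165 to 346 CPM, with 10 of 10 above 0 (6 without control replicate 2 and exposed replicate 3) and Cd5l, Clec4f and Csf1r most abundant. Leukocyte markers, led by Lyz2, Ptprc and Cd79a, summed to 34.8 to 71.6 and 33.0 to 143. Endothelial markers, led by Eng, Clec4g and Kdr, summed to 140 to 163 and 121 to 165, and 5 of 10 were below 0. Cholangiocyte markers, led by Spp1, Sox9 and Cdh1, summed to 14.0 to 33.7 and 20.8 to 30.8, with Cftr at no more than 15 reads. In these 7 lists 0 markers passed in edgeR or limma-voom, and DESeq2, with 2.46% of all genes called, called Marco and S100a9. At an unadjusted p below 0.05 in edgeR, 3 Kupffer cell markers were higher, 2 leukocyte markers were higher and 2 lower, and Des and Acta2, in both the stellate cell and the smooth muscle list, were lower, beside 7.35% of all genes higher and 4.74% lower. The part of these cell types in the levels of Actb, Pfn1 and Cfl1 was not tested.

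Likeness of pattern was measured as the root mean square difference of log2 CPM, centred on each gene, over the 6 libraries, among 6465 other genes that averaged 10 CPM or more. The 5 genes nearest to Actb were mt-Co1 (0.11), mt-Nd1 (0.12), Alg2 (0.14), mt-Co2 (0.14) and Sh3bgrl2 (0.14). mt-Co1, mt-Nd1 and mt-Co2 are encoded by the mitochondrial genome, whose share of reads differed between the groups as given above. mt-Co1 had 51494 ± 2616 CPM in control and 27783 ± 2064 in exposed livers. Alg2, an enzyme of protein glycosylation, had 17.2 ± 1.89 and 9.88 ± 1.38. The 5 nearest to Mprip were Nxf1 (0.14), Dcaf6 (0.16), Zfyve1 (0.17), Nlrc5 (0.19) and Top3b (0.22). Nxf1, the main export receptor of mRNA, had 13.9 ± 0.395 CPM in control and 29.0 ± 4.65 in exposed livers. These likenesses describe 6 libraries in 2 groups and carry no test.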

How the data were processed

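RNA of mouse liver was sequenced in 6 poly(A)-selected libraries made with a directional kit, per the labels' protocols. The deposited values are raw counts by gene symbol (56674 rows). The submitters' processing notes name bcl2fastq and GRCm39, with aligner, counter, annotation and strand setting not given in the sources used here. Genes were kept by filterByExpr of edgeR (minimum count 10, minimum total 15), scaled by TMM and tested over all 17871 by quasi-likelihood in edgeR 4.0.16 (R 4.3.3), Benjamini-Hochberg adjusted p below 0.05. The SE is the size of the log2 fold change divided by the square root of F. Rows sharing a name with another (939) kept the row with most reads under that name. No pair of libraries was alike within sampling noise (chi-square over degrees of freedom at least 181).

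Lengths and sequences came from GENCODE M21 (1 protein-coding transcript per gene, the longest among equally well annotated ones) and RefSeq promoters. The named genes are the 10, per list the 2 other tested genes of at least 1 CPM with smallest p, per marker list the 3 most abundant, and the 5 most like Actb and Mprip, predicted models left out. Members and lists were chosen with earlier results of these data known, and 2 list genes are not reported here. Alternatives used DESeq2 1.42.0 and limma 3.58.1.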

Additional observations from a re-analysis of the deposited data

How the results depend on the processing

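The 8 tested genes gave 0 calls under all 18 alternatives, and Pfn1 came nearest (adjusted p = 0.0787, limma-voom with library quality weights). Actb kept a negative estimate, -1.05 to -0.76, and Mprip a positive one of up to 1.41, both farthest from the reported value with library size alone. Both genes were selected on their group difference in these libraries, so their kept signs are a description. Actg1, Cfl1, Pfn1 and Arpc2 stayed below 0 in all 18. Myl6 and Myh9 turned to 0.11 and 0.15 with library size alone, Myh9 also to 0.11 with library quality weights and to 0.24 with both control replicate 2 and exposed replicate 3 (PB-MP) left out, where Srf turned to -0.011. With 1 library left out, estimates ran from -0.40 to 0.033 for Myl6, -0.30 to 0.22 for Myh9, -0.14 to 0.36 for Tmsb4x and -0.056 to 0.24 for Srf. Over all genes edgeR called 0, 0 to 1 with 1 library left out and 2 without both libraries, and DESeq2 called 513. The difference in the share of reads of the 10 genes went from -0.0169 to -0.0303 percentage points without mitochondrial and ribosomal RNA rows. The count of the other 95 actin system genes below 0, examined after seeing the data, went from 68 to 26 with library size alone. In that setting the share of all genes below 0 went from 49.4% to 28.5%, and their median from 0.01 to 0.23. With 1 library left out the count of actin system genes below 0 was 65 to 76. The cause of these shifts was not tested.

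With the replicate number as a block, 0 genes were called and 1836 had an unadjusted p below 0.05 (2161 without). Same-numbered libraries deviated with correlations of -0.09, 0.09 and 0.08, and 4 of 6 correlated best with their own number. The share of Rn18s-rs5 had the same order of replicates in both groups, at 2.92%, 11.2% and 1.15% in control and 3.61%, 9.42% and 0.707% in exposed livers. The labels state no pairing, so the numbers were not taken as pairs, and whether same-numbered libraries share a batch was not tested. The scarcest of the 10 genes, Srf, had at least 286 reads in each library.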
